A study of Macaca mulatta with 12 samples.

Results

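The metabotropic glutamate receptors GRM2, GRM3, GRM4, GRM5, GRM6, GRM7 and GRM8 were followed through the lateral geniculate nucleus, which passes signals from the retina on to visual cortex, in rhesus macaques after deprivation of 1 eye. Every non-control probe set whose gene symbol was exactly one of these names was taken, which gave 11 probe sets of 7 genes out of 22283 probe sets on a human Affymetrix array that name 11963 gene symbols in all. The RNA was total RNA from single layers, 1 array per layer and hemisphere. The 6 deprived samples were the contralateral layers 1, 4 and 6 together with the ipsilateral layers 2, 3 and 5. The 6 non-deprived samples were the same layers of the opposite side. Layers 1 and 2 are magnocellular (4 samples) and layers 3 to 6 parvocellular (8 samples). Both groups came from deprived animals, so no sample of an undeprived animal entered any comparison. The sources used here do not give how and how long the eye was deprived, the age and number of the animals, or which samples shared an animal. The p-values therefore measure the spread between these samples, which may be partly technical, and are too small as statements about animals where samples shared one.

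Metabotropic receptors are G-protein-coupled receptors that sense glutamate through a large extracellular domain and work as dimers. They are sorted by sequence and coupling. Group I, here GRM5, couples through Gq to phospholipase C and the release of stored calcium. Group II (GRM2 and GRM3) and group III (GRM4, GRM6, GRM7 and GRM8) couple through Gi/o proteins and lower adenylyl cyclase activity. In the geniculate they are best known from feedback axons of visual cortex, which drive relay cells in part through metabotropic receptors.

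The tissue carried its defining neuronal transcripts. Of 10 relay neuron markers 8 lay above the filter on low values, among them TCF7L2, NEFH, NEFM and the vesicular glutamate transporter SLC17A6, while GBX2 and PRKCD did not. The arrays had trimmed means of 1500.45 to 1500.6, but their median intensities ranged from 411.5 to 666.5 and were higher ipsilaterally (586 ± 83.4, SD, n = 6) than contralaterally (468 ± 39.7, n = 6). The array of the deprived ipsilateral layer 2 was least like the others (mean r of 0.890, against 0.921 to 0.948). It and the deprived ipsilateral layer 5 had GAPDH 3'/5' ratios of 9.38 and 11, against 2.21 to 5.65 elsewhere. The ratio is a measure of RNA degradation, read here with human probes on macaque RNA. It averaged 5.51 ± 3.70 in deprived and 3.83 ± 1.30 in non-deprived samples (SD, n = 6 each). The ACTB 3'/5' ratio was 31.5 ± 16.9 in deprived and 33.7 ± 13.5 in non-deprived samples. Median intensities were 554 ± 101 in deprived and 500 ± 71.2 in non-deprived samples.

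Of the 11 receptor probe sets, 6 lay above the filter, and these measured GRM3, GRM4, GRM5, GRM6 and GRM7 (with 2 probe sets). Levels are scaled intensities on a linear scale, and no probe set's level is set against another's. The floor was 110.8, the 20th percentile of all values, and a probe set was called near the floor when at least 6 of the 12 arrays lay at or below 221.6, which is 2 times the floor. None of the 6 tested probe sets had any array at or below 221.6. The other 5, which stand for GRM2, GRM8 and 1 probe set of GRM5, were below the filter and were not tested.

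**Figure D1:**
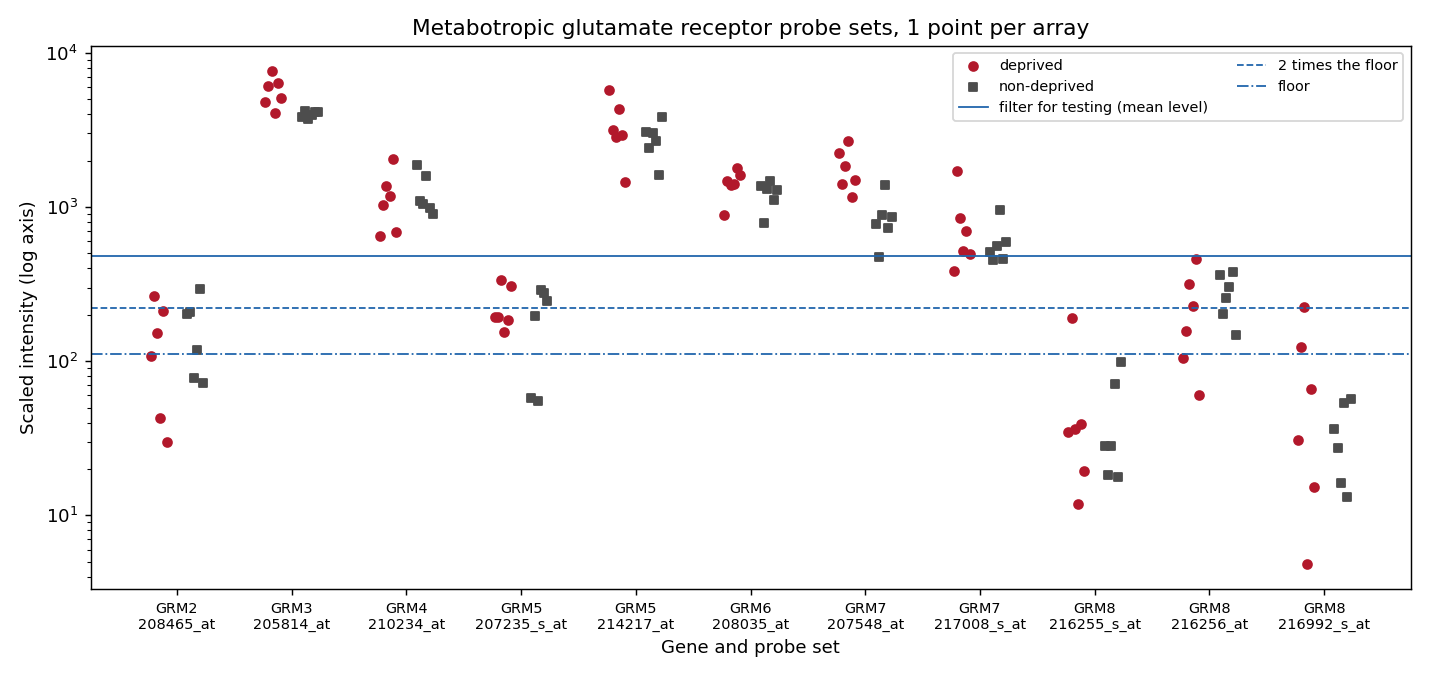
Scaled intensity (log axis) of all 11 receptor probe sets, 1 point per array, with circles for the 6 deprived and squares for the 6 non-deprived samples. The lines mark the filter for testing (mean level, 483), 2 times the floor (221.6) and the floor (110.8). The values of GRM2 and GRM8 and the first probe set of GRM5 lie under the filter line on every array, and those of GRM3, GRM4, GRM6 and the second probe set of GRM5 lie wholly above it.

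GRM2, a mainly presynaptic group II receptor, was near the floor on probe set 208465_at, with 10 of 12 arrays at or below 221.6 and 5 at or below the floor. It had 29.7, 131 and 264 (lowest, median and highest) in deprived samples, against 72.5, 160 and 295 in non-deprived samples. The groups overlapped. The 3 deprived contralateral samples were all at or below the floor (29.7 to 108.4), against 77.9 to 295 in the non-deprived contralateral samples, while ipsilaterally deprived samples had 152.8 to 264 and non-deprived ones 72.5 to 203. By cell class it averaged 196 ± 64.6 in magnocellular layers (SD, n = 4) and 125 ± 91.1 in parvocellular layers (n = 8), a difference within the spread.

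GRM8, a presynaptic group III receptor, had 3 probe sets. On 216255_s_at 11 arrays and on 216992_s_at 10 arrays of 12 lay at or below the floor. The exceptions were the deprived ipsilateral layer 2 on both probe sets (190 and 123) and the deprived ipsilateral layer 3 on the second of them (224). The probe set 216256_at was dim without being near the floor by this rule, with 5 arrays at or below 221.6. It ranged from 60.3 to 459 in deprived samples (median 193), against 148 to 376 in non-deprived samples (median 279). The deprived sample was lower in 4 of 6 layers on this probe set, and the deprived values spanned those of all non-deprived samples. By cell class it averaged 207 ± 110 in magnocellular layers (SD, n = 4) and 268 ± 126 in parvocellular layers (n = 8), which overlapped.

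GRM5, the group I receptor, was measured by 214217_at well above the filter and by 207235_s_at near the floor. On 214217_at the deprived samples had 5762.5, 3172, 2849, 4334, 2939 and 1451.5 in layers 1 to 6, against 3078, 2397, 2998, 2688, 1614 and 3820 in the non-deprived samples of the same layers. The highest and the lowest value of all 12 arrays, in layers 1 and 6, were thus both in deprived samples. The means were 3418 ± 1471 in deprived samples and 2766 ± 739 in non-deprived samples (SD, n = 6 each). The log2 change was 0.23 with a 95% interval of -0.34 to 0.80 (limma adjusted p = 0.791), so GRM5 did not pass. Leaving out layer 1 of the deprived group gave 0.025 and leaving out its layer 6 gave 0.45, and the change was 0.021 in parvocellular layers alone. On 207235_s_at, where 7 arrays were at or below 221.6, it had 155 to 337.5 in deprived samples and 54.9 to 288.5 in non-deprived samples, which overlapped.

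The comparison of layers driven by the deprived eye with layers driven by the other eye asked whether receptor transcripts differ with deprivation. The clearest difference was in GRM7, a group III receptor of presynaptic active zones with low affinity for glutamate, whose level on 207548_at was higher in the deprived sample of every layer. GRM3, a group II receptor of glia and neurons, was also higher in all 6 layers. GRM4, GRM5, GRM6 and the second probe set of GRM7 had differences of mixed sign across layers. None of the 6 tested probe sets passed the threshold of adjusted p under 0.05.

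GRM7 on 207548_at had 2254, 1405, 1856, 2687, 1163 and 1496 in deprived layers 1 to 6, against 771, 473, 883, 1378, 725 and 866 in the non-deprived samples of those layers. The deprived sample was 2.92 times its non-deprived partner in layer 1 and 2.97 times in layer 2, the magnocellular layers, and 1.60 to 2.10 times in layers 3 to 6. The groups overlapped through the non-deprived layer 4 alone, which was above the deprived layer 5. Group means were 1810 ± 574 in deprived samples and 849 ± 298 in non-deprived samples (SD, n = 6 each). The fitted difference was 2.15-fold (log2 change 1.10 ± 0.25, SE, 95% interval 0.57 to 1.63), with unadjusted p = 0.000411 and adjusted p = 0.116 by limma. It ranked 39 of 11105 probe sets by p. Without the deprived layer 5, an array of high GAPDH ratio, the change was 1.26 and passed (limma adjusted p = 0.0484), and without both arrays of highest GAPDH ratio it was 1.37 and did not pass (limma adjusted p = 0.0738).

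The second probe set of GRM7, 217008_s_at, did not show this pattern. It had 384, 1715, 852, 517, 700 and 497 in deprived layers 1 to 6, against 509, 450, 559, 960, 462 and 594 in non-deprived ones. It was higher with deprivation in layers 2, 3 and 5 alone, those whose deprived samples came from the ipsilateral hemisphere. The log2 change was 0.26 (95% interval -0.32 to 0.85, limma adjusted p = 0.765), and leaving out the deprived layer 2, whose array was least like the others, gave -0.0040. Which transcripts each probe set detects in macaque RNA was not examined, and the difference between the 2 probe sets limits what can be said of GRM7.

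GRM3 on 205814_at had 4782, 6113, 7659, 4071, 6405 and 5097 in deprived layers 1 to 6, against 3821, 4168, 3703, 3953, 4118 and 4156 in non-deprived ones. The non-deprived samples were closely grouped (3986 ± 194, SD, n = 6) and the deprived ones spread out (5688 ± 1294, n = 6). Only the deprived layer 4 lay within the non-deprived range. The fitted difference was 1.40-fold (log2 change 0.48 ± 0.15, 95% interval 0.16 to 0.81), with unadjusted p = 0.00585 and adjusted p = 0.222 by limma. After centring each array on its median it was 0.35 (limma adjusted p = 0.454).

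GRM4, a presynaptic group III receptor, had 647, 1027, 1372, 1172, 2041 and 688 in deprived layers 1 to 6, against 1880, 1094.5, 1048, 1586, 984 and 899 in non-deprived ones. The deprived sample was higher in layers 3 and 5 and lower in the other 4 layers, and the groups overlapped widely. Its log2 change was -0.17 (95% interval -0.67 to 0.33, limma adjusted p = 0.834), and it was 0.15 in parvocellular layers alone. GRM6, known as the receptor of ON bipolar cells in the retina, had 889, 1476, 1396, 1401, 1792 and 1607 in deprived layers 1 to 6, against 1378, 786, 1314, 1475, 1102.5 and 1279 in non-deprived ones. It was higher in 4 of 6 layers, with a log2 change of 0.22 (95% interval -0.14 to 0.58, limma adjusted p = 0.665).

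**Figure D2:**
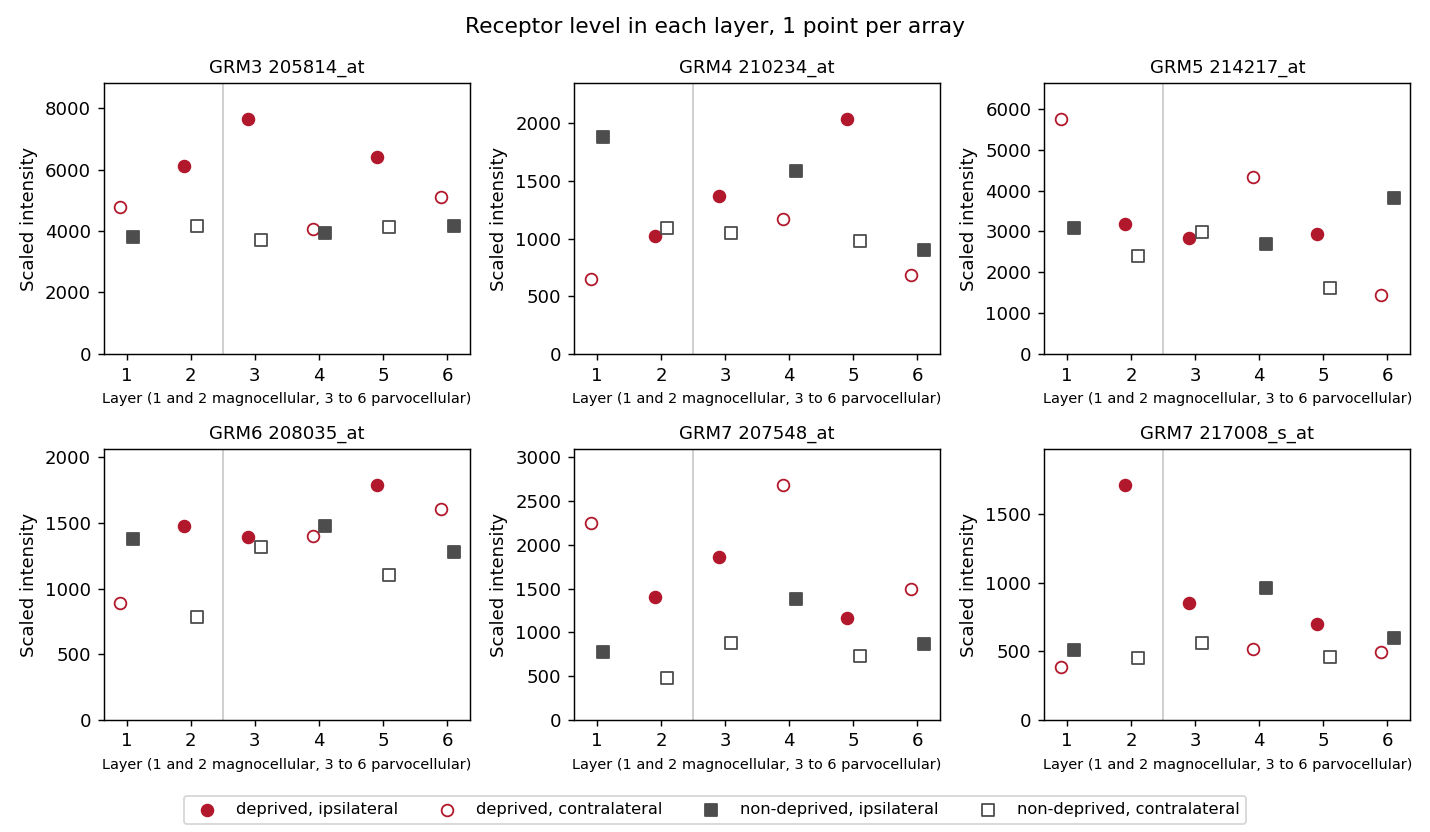
Scaled intensity of the 6 tested probe sets in each layer, 1 point per array, with circles for deprived and squares for non-deprived samples, filled for ipsilateral and open for contralateral. On 207548_at of GRM7 and on 205814_at of GRM3 the deprived point lies above the non-deprived one in 6 of 6 layers, while the other panels show both orders.

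Counted together, 0 of the 6 probe sets were called with deprivation, where 0.063% of all 11105 tested were (7 probe sets). At an unadjusted p under 0.05 it was 2 of 6 by limma, where 12% of all tested were. A higher value in the deprived sample of all 6 layers was seen for 2 of 6, where 2.74% of all tested had it. The changes were positive for 5 and negative for 1, with a median of 0.25 against 0.03 over all probe sets tested. GRM7 and GRM3 were already known to have differed in these data when the receptors were chosen, so these counts are a description.

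Marker genes of other cell types mostly had positive deprivation changes too, none of which passed, where 3869 of all 7285 genes were positive. The summed levels of every list overlapped between deprived and non-deprived samples, and their part in the GRM3 and GRM7 differences was not tested. Of 15 measured oligodendrocyte and myelin genes 15 had positive changes (median 0.38), and their summed level was 117631 to 219507 in deprived samples against 92446 to 149908 in non-deprived samples. Astrocyte genes were positive for 11 of 13 (median 0.15), with a summed level of 182301 to 264150 in deprived samples and 161942 to 227981 in non-deprived samples. Both measured genes of oligodendrocyte precursors, PDGFRA (0.42) and VCAN (0.54), were positive, with a summed level of 6496 to 13788 against 5320.3 to 7419 over the 4 precursor genes on the array.

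Endothelial and mural genes were positive for 8 of 9 (median 0.39), with 13602 to 20286 in deprived samples against 10893 to 15419 in non-deprived samples. Microglial genes were positive for 6 of 6 (median 0.23), with 10808 to 21726 against 11177 to 13374. Interneuron genes were positive for 5 of 6 (median 0.37), with 56264 to 104960 against 56954 to 80554. The negative one was PVALB (-0.51 ± 0.16, SE, limma adjusted p = 0.223), while RELN had 0.79 ± 0.17 (limma adjusted p = 0.101). Relay neuron markers were positive for 3 of 8 (median -0.23), with 179570 to 259236 in deprived samples against 223760 to 306838 in non-deprived samples. Their mean sums were 215343 and 253956. Most of that difference lay in the neurofilament genes NEFM (means of 51824 against 73778) and NEFH (55757 against 70329). No marker on the array was at 0. In tissue of mixed cells, a larger share of a cell type and more RNA per cell cannot be told apart.

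By cell class the receptors showed small differences, and none passed. GRM6 averaged 1132 ± 345 in magnocellular layers (SD, n = 4) and 1421 ± 210 in parvocellular layers (n = 8), a log2 change of -0.37 ± 0.18 (95% interval -0.75 to 0.02, limma adjusted p = 0.374). GRM5 on 214217_at had the opposite sign, with 3602 ± 1481 in magnocellular and 2837 ± 977 in parvocellular layers (0.35 ± 0.29, limma adjusted p = 0.611). The spread of the classes overlapped for both.

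GRM7 on 207548_at had 1226 ± 788 in magnocellular layers and 1382 ± 648 in parvocellular layers (-0.29, 95% interval -0.85 to 0.27), and 217008_s_at had a change of 0.0018 (95% interval -0.62 to 0.62). GRM3 (-0.03, 95% interval -0.37 to 0.31) and GRM4 (-0.10, 95% interval -0.63 to 0.43) lay near 0, and both intervals hold differences of either sign. For cell class 0 of 6 were called, where 0.72% of all tested were, and 0 of 6 had an unadjusted p under 0.05 by limma, where 14.6% of all tested did. The median change was -0.07, the same to 2 decimals as over all probe sets tested. The ACTB 3'/5' ratio also differed, at 46.4 ± 15.1 in magnocellular and 25.7 ± 8.78 in parvocellular layers, and with it as a covariate the changes of GRM3 (0.30) and GRM4 (0.051) were positive and that of 217008_s_at negative (-0.32). Oligodendrocyte and myelin genes were negative for 11 of 15 (median -0.50) in the same comparison, where 4197 of all 7285 genes were. The part of oligodendrocyte and myelin genes in the receptor differences was not tested.

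Ordered by deprivation and cell class together, GRM7 on 207548_at was highest in deprived magnocellular samples (1830 ± 600, SD, n = 2). Non-deprived magnocellular samples had the lowest mean (622 ± 211, n = 2). In the parvocellular layers it was 1801 ± 655 in deprived samples and 963 ± 286 in non-deprived ones (n = 4 each). The deprived means of the classes differed by less than their SDs, and the non-deprived means by somewhat more than either SD. GRM3 had 5447 ± 941 in deprived and 3994 ± 245 in non-deprived magnocellular samples, and 5808 ± 1561 in deprived and 3983 ± 206 in non-deprived parvocellular samples. Its deprived means differed between classes by less than their SD, and so did its non-deprived means.

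Whether the deprivation effect differed between classes was tested as its own term. For GRM7 on 207548_at the effect was larger by 0.68 in magnocellular layers (95% interval -0.41 to 1.77, limma adjusted p = 0.722), and for GRM3 the difference was -0.07 (-0.77 to 0.63). The difference of 207548_at was 0.26 to 1.10 with single arrays left out and 0.21 with the ACTB ratio as a covariate. GRM4 had the largest difference by size, -0.97 ± 0.45 (unadjusted p = 0.0467, limma adjusted p = 0.561). Its level was 837 ± 269 in deprived and 1487 ± 555 in non-deprived magnocellular samples (n = 2 each), against 1318 ± 561 in deprived and 1129 ± 311 in non-deprived parvocellular samples (n = 4 each). No difference passed. Of the 6 probe sets 0 were called and 1 had an unadjusted p under 0.05 by limma, where 0% and 8.73% of all tested did.

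**Figure D3:**
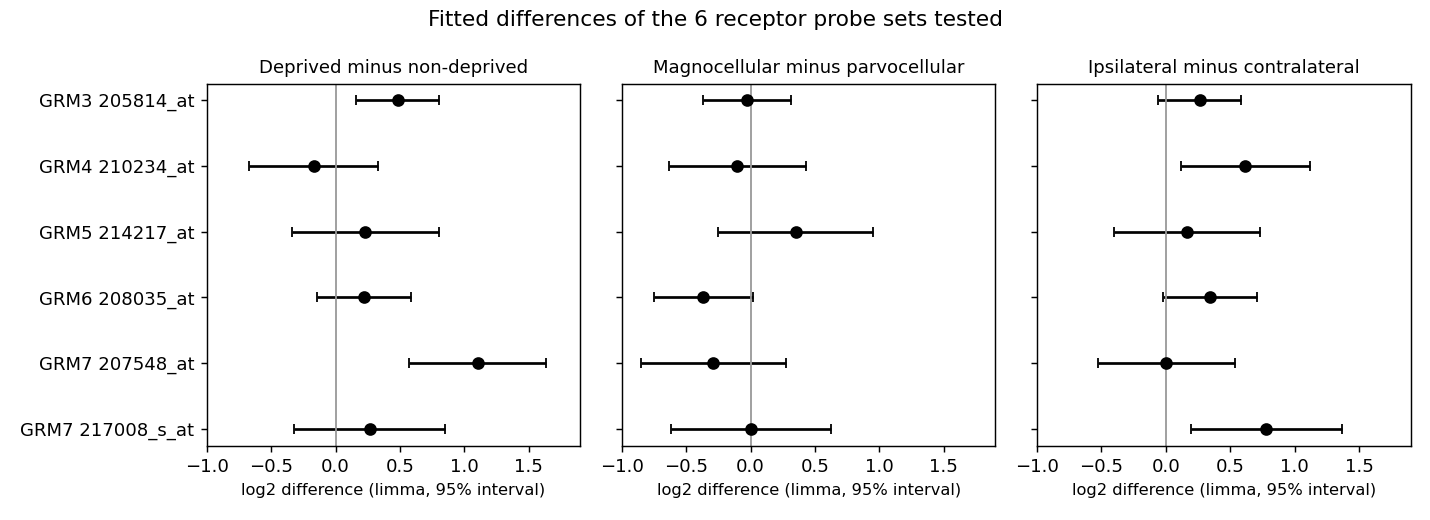
Fitted log2 differences of the 6 tested probe sets with their 95% intervals by limma, for deprived minus non-deprived, magnocellular minus parvocellular and ipsilateral minus contralateral samples. With deprivation the intervals of GRM3 (0.16 to 0.81) and of GRM7 on 207548_at (0.57 to 1.63) lie above 0, and with cell class all 6 intervals include 0. With hemisphere the intervals of GRM4 (0.12 to 1.12) and of GRM7 on 217008_s_at (0.20 to 1.37) lie above 0 and the others include it. These intervals are not adjusted for the number of probe sets.

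Between hemispheres all 6 receptor probe sets had positive differences, that is, higher values ipsilaterally, and none passed. GRM4 had 899, 1479 and 2041 (lowest, median and highest) in ipsilateral samples, against 647, 1016 and 1172 in contralateral samples (log2 change 0.62 ± 0.24, limma adjusted p = 0.174). It passed in 1 of 25 settings, without the non-deprived layer 6, its lowest ipsilateral value (0.80, limma adjusted p = 0.0383). After centring each array on its median the GRM4 difference was 0.30 (limma adjusted p = 0.401). GRM7 on 217008_s_at had 509, 776 and 1715 in ipsilateral samples, against 384, 479 and 559 in contralateral samples (0.78 ± 0.28, limma adjusted p = 0.149). Both overlapped between hemispheres. The measures of RNA quality differed with hemisphere as well. The GAPDH 3'/5' ratio was 6.14 ± 3.37 in ipsilateral and 3.20 ± 0.72 in contralateral samples, and the ACTB ratio 39.7 ± 17.0 and 25.5 ± 7.90 (SD, n = 6 each). In a fit that includes the GAPDH ratio the difference of GRM4 was 0.29 (limma adjusted p = 0.889) and that of 217008_s_at 0.57 (limma adjusted p = 0.873).

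GRM6 (0.35), GRM3 (0.26), GRM5 (0.17) and GRM7 on 207548_at (0.0040) had smaller differences. After centring each array on its median, which lowers every hemisphere difference by 0.32 on the log2 scale and every deprivation difference by 0.14, GRM3 (-0.05), GRM5 (-0.15) and GRM7 on 207548_at (-0.31) were negative. For hemisphere 0 of 6 were called, where 0.108% of all tested were, and 2 of 6 had an unadjusted p under 0.05 by limma, where 20.1% of all tested did.

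By deprivation and hemisphere together, the deprived means of GRM3 and of GRM7 on 207548_at were above the non-deprived means on both sides. GRM3 averaged 6726 ± 822 in deprived and 3977 ± 169 in non-deprived ipsilateral samples, and 4650 ± 526 in deprived and 3996 ± 255 in non-deprived contralateral samples (SD, n = 3 each). All 3 deprived ipsilateral samples lay above every other sample. GRM7 on 207548_at averaged 1475 ± 352 in deprived and 1005 ± 326 in non-deprived ipsilateral samples, and 2146 ± 603 in deprived and 694 ± 207 in non-deprived contralateral samples.

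The deprivation effect was 0.54 larger ipsilaterally for GRM3 (95% interval -0.06 to 1.13, limma adjusted p = 0.786). For GRM7 on 207548_at it was smaller ipsilaterally, with a difference of -1.06 ± 0.44 (SE, unadjusted p = 0.0294, limma adjusted p = 0.704). The second probe set of GRM7 had 0.68 (-0.46 to 1.83), of the opposite sign. Of the 6 probe sets 0 were called and 1 had an unadjusted p under 0.05 by limma, where 0% and 6.57% of all tested did. In this design the same term is also the difference between layers 2, 3 and 5 and layers 1, 4 and 6. Those layers differ in whether their input comes from the eye on the same side as the geniculate or on the opposite side. These differences cannot be told apart. The deprived ipsilateral samples include both arrays of highest GAPDH ratio. Without them the difference was 0.74 for GRM3 (limma adjusted p = 0.912) and -0.82 for 207548_at (unadjusted p = 0.141, limma adjusted p = 0.966). In the fit that includes the ratio it was 0.63 for GRM3 (limma adjusted p = 0.866) and -1.06 for 207548_at (limma adjusted p = 0.863). After centring each array on its median the difference was 0.29 for GRM3 (limma adjusted p = 0.899) and -1.31 for 207548_at (limma adjusted p = 0.577).

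**Figure D4:**
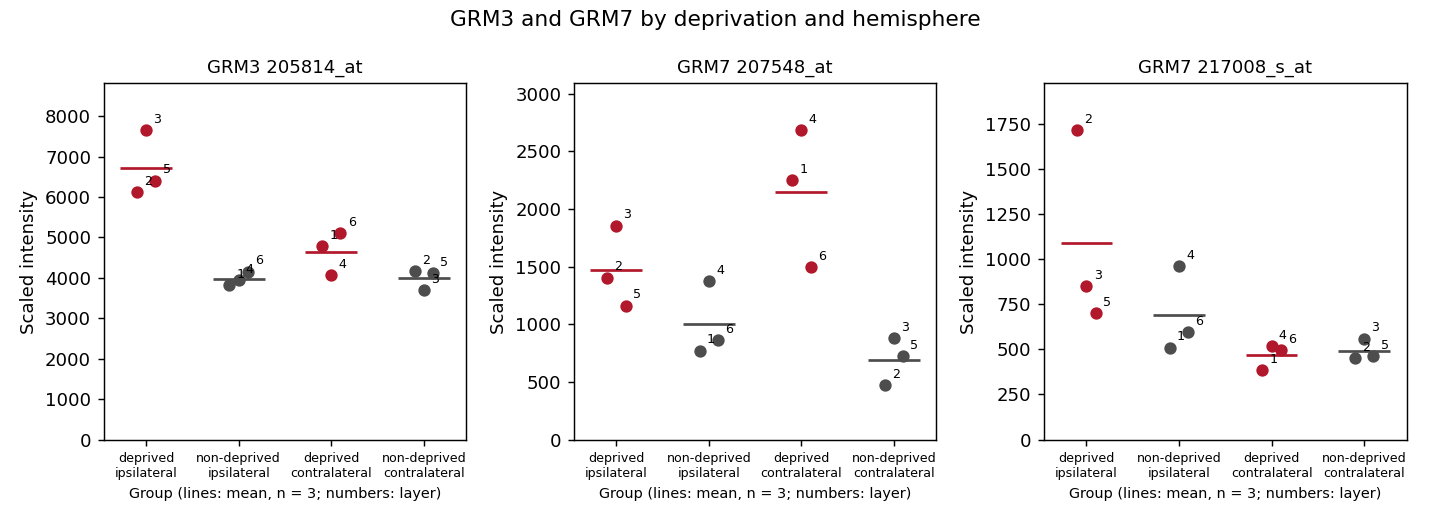
Scaled intensity of GRM3 (205814_at) and of both GRM7 probe sets in deprived and non-deprived samples of each hemisphere, 1 point per array with its layer number and a line at the mean (n = 3 each). The 3 deprived ipsilateral samples of GRM3 (6113 to 7659) lie above all its other samples, and the highest values of 207548_at are in the deprived contralateral layers 1 and 4.

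For each tested probe set the 3 other genes of most similar profile were found by Pearson r of log2 values over the 12 arrays, as a description of arrays that share deprivation, class and hemisphere. GRM7 on 207548_at was most like HLF (r = 0.892), a transcription factor, PIK3R1 (0.888), a regulatory subunit of phosphoinositide 3-kinase, and CAV1 (0.877), a caveolar protein. GRM3 was most like RRAS2 (0.950), a small GTPase, RNASEH2B (0.921) and GRB14 (0.917), an adaptor protein. The deprivation changes of these 6 genes were positive, from 0.42 for HLF to 1.64 for PIK3R1. Because they were chosen for likeness to probe sets higher in the deprived sample of every layer, that sign is no separate evidence.

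The remaining profiles had other neighbours. GRM4 was most like NDUFB8 (0.948), a subunit of respiratory complex I, ATF6B (0.926) and RIPOR1 (0.926). GRM5 on 214217_at was most like ZDHHC17 (0.875), SSR1 (0.865) and RTN1 (0.849), and GRM6 was most like DCAF8 (0.941), SFMBT1 (0.919) and MICAL2 (0.910). GRM7 on 217008_s_at was most like MAN1C1 (0.970), EFCAB14 (0.960) and TAS2R4 (0.959), none of them among the 3 genes named for its other probe set.

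Genes that act with the receptors were read from lists, with 1 probe set per gene. Over all 7285 genes tested, the median change with deprivation was 0.02, with 5 higher and 1 lower called. Of the coupling genes of group I receptors 11 of 16 were measured, 0 passed in either direction and the median was 0.14. PLCB1, a phospholipase C that Gq activates, had 12666 ± 3367 in deprived and 6381 ± 1026 in non-deprived samples (SD, n = 6 each, 0.96 ± 0.18, limma adjusted p = 0.062), but its other probe set had -0.13. PRKCA, a protein kinase C, had 3462 ± 306 in deprived and 2644 ± 584 in non-deprived samples (0.41, limma adjusted p = 0.33).

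Of the coupling genes of groups II and III 21 of 27 were measured, 0 passed with deprivation and the median was -0.02. GNG3, a G-protein gamma subunit of neurons, had 7204 ± 1633 in deprived and 11984 ± 2143 in non-deprived samples (-0.74 ± 0.16, limma adjusted p = 0.101), and GNAI1, an inhibitory alpha subunit, had a change of 0.46 (0.39). Of scaffolds and binding partners 13 of 23 were measured and 0 passed (median 0.08), with DLGAP2 at 0.74 and NCDN at -0.69. Of receptor kinases, arrestins and RGS proteins 16 of 23 were measured and 0 passed (median 0.10). GRK5, a receptor kinase, had 989 ± 307 in deprived and 558 ± 120 in non-deprived samples (0.78 ± 0.23, limma adjusted p = 0.19), and RGS7 had 0.38.

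Genes of glutamate handling and the ionotropic receptors gave no call with deprivation either. Of the first 13 of 20 were measured (median 0.02), with GOT1, an aspartate aminotransferase, at -0.45 and SLC7A11, the cystine/glutamate exchanger, at 0.53. Of the second 10 of 18 were measured (median 0.10), with GRIA1, an AMPA receptor subunit, at 1110 ± 399 in deprived and 692 ± 173 in non-deprived samples (0.66 ± 0.25, limma adjusted p = 0.315) and GRIN2A, an NMDA receptor subunit, at -0.30.

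With cell class 0 genes of these 6 lists passed, where 26 higher and 28 lower of the 7285 genes were called. ITPR1, a receptor that releases calcium from stores, had 943 ± 313 in magnocellular and 391 ± 134 in parvocellular layers (1.28 ± 0.30, limma adjusted p = 0.0622), and GNAQ had a change of 0.48 with -0.60 on its other probe set. Of the coupling genes of groups II and III 16 of 21 were negative, where 4197 of all 7285 genes were, with a median of -0.20 against -0.06 over all genes. ADCY2, an adenylyl cyclase, had 4550 ± 1095 in magnocellular and 6867 ± 1360 in parvocellular layers (-0.60 ± 0.16, limma adjusted p = 0.101, other probe set -0.38), and GNAI2 had a change of -1.40 (0.128).

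RGS14, an RGS protein, had 418 ± 139 in magnocellular and 904 ± 281 in parvocellular layers (-1.12 ± 0.25, limma adjusted p = 0.054), and ARRB1, an arrestin, had a change of -0.64. GRIP2, a synaptic scaffold, had 1383 ± 332 in magnocellular and 2341 ± 258 in parvocellular layers (-0.79 ± 0.18, limma adjusted p = 0.0552), and NCDN had -0.64. SLC1A3, the astrocyte glutamate transporter, had 27173 ± 11050 in magnocellular and 14109 ± 7507 in parvocellular layers (0.97 ± 0.26, limma adjusted p = 0.118), and SLC17A7, a vesicular glutamate transporter, had -1.19. GRIA3 had -0.84 (0.06 on its other probe set) and GRIN1 -0.42 (-0.06 and -0.73 on its others), and neither passed. The medians with cell class were -0.08 for group I coupling, -0.04 for scaffolds, 0.09 for kinases and RGS proteins, 0.0015 for glutamate handling and -0.14 for ionotropic receptors.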

How the data were processed

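The deposited table gives a scaled linear intensity for each probe set on each array, made with software that the sources used here do not name. Trimmed means (2% off each end) were equal across arrays, so the authors' scaling was kept. Genes were named from GEO's platform annotation: apart from 68 controls, 19065 probe sets named 1 gene, 1043 several and 2107 none, and all 7 receptor symbols are in the macaque gene tables. Human probes can bind macaque RNA less well. No coordinates are given because no genome build is named.

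From the deposited intensities log2 values were computed, with the 20th percentile of all values (110.8) as a floor. The test covered the 11105 probe sets with a mean log2 value at or above the overall median (an intensity of 483). Deprivation, cell class and hemisphere were additive terms in limma 3.58.1 (R 4.3.3; lmFit, eBayes with a trend), two-sided, with Benjamini-Hochberg adjustment over all 11105 and 8 residual degrees of freedom (7 with an interaction). The fit was tested on simulated data. The members, lists and rules were chosen with earlier results of these data known. Every receptor probe set is described, 2 genes of smallest p are named per list and comparison, and 3 neighbours per probe set by r. The number of arrays limits the precision. Alternatives were the layer as a block, model terms, normalization, filter, floor, trend, RNA-quality covariates and samples left out.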

Additional observations from a re-analysis of the deposited data

Results flagged for a closer look

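In 36 groups of 4 to 8 samples, 2 held a sample further from the others than Dixon's 95% limit allows, and chance gives about 1 in 20. On 208035_at of GRM6 the deprived contralateral layer 1 had 888.9, against 1396 to 1792 in the other deprived samples. On 217008_s_at of GRM7 the non-deprived ipsilateral layer 4 had 960, against 450 to 594 in the other non-deprived samples.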

How the results depend on the processing

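The number of receptor probe sets called was 0 for all 5 terms in every setting other than single arrays left out. Without single arrays it was 0 to 1 for deprivation (GRM7 without the deprived layer 5) and 0 to 1 for hemisphere (GRM4 without the non-deprived layer 6). GRM7 on 207548_at kept a positive change with deprivation in all 26 settings (0.88 in parvocellular layers alone to 1.37, adjusted p from 0.0484 to 0.641), as did GRM3 (0.35 to 0.56, adjusted p from 0.18 to 0.677). No pair of layers deviated together once the deprivation group means were removed (0 of 6 correlations over 0.1). The paired samples of a layer come from opposite hemispheres, and the hemisphere difference was not removed. This check therefore cannot decide whether the layer number pairs samples, and the main fit did not pair them. With the replicate block the GRM7 change was 1.10 (adjusted p = 0.107) and no count of receptors called changed. Over all probe sets the calls ranged from 0 to 43 for deprivation (as fitted 7), 4 to 188 for cell class (as fitted 80), 0 to 851 for hemisphere (as fitted 12), 0 to 208 for the effect by cell class (as fitted 0) and 0 to 3 for the effect by hemisphere (as fitted 0). The filter at the top 40% left 217008_s_at without a value. Other differences, none of them called, changed sign, and the cause was not tested. For cell class these were GRM3 after median centring (0.056) or with the GAPDH (0.0030) or ACTB ratio (0.30), GRM4 with the ACTB ratio (0.051) or without both arrays whose GAPDH ratio was highest (0.065), and 217008_s_at with the GAPDH (-0.094) or ACTB ratio (-0.32) or without those arrays (-0.41). For hemisphere they were 207548_at with quantile normalization (-0.14), median centring (-0.31) or the ACTB ratio (-0.48), GRM5 after median centring and with the ACTB ratio (-0.15 and -0.026) and GRM3 after median centring (-0.054). For deprivation GRM4 did in parvocellular layers alone (0.15). The effect by cell class turned for GRM3 with the ACTB ratio (0.23) and for 217008_s_at without the 2 arrays (-0.10), and that by hemisphere for GRM6 without a hemisphere term (0.29). Leaving out single arrays gave ranges across 0 for 217008_s_at with deprivation (-0.0040 to 0.39), for cell class in GRM3 (-0.12 to 0.044), GRM4 (-0.28 to 0.045) and 217008_s_at (-0.40 to 0.24), and for hemisphere in GRM5 (-0.049 to 0.37) and 207548_at (-0.16 to 0.17). They did so too for the effect by cell class in GRM3 (-0.30 to 0.17), GRM6 (-0.40 to 0.16) and 217008_s_at (-0.078 to 1.57), and by hemisphere in GRM6 (-0.28 to 0.063).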

Other observations

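Between hemispheres, genes that act with the receptors differed in places without passing. Of the scaffolds and binding partners 10 of 13 had positive differences (median 0.30), where 4210 of all 7285 genes did (median 0.06). The smallest p was that of DLG4, the main scaffold of excitatory synapses, with 1202 ± 334 in ipsilateral and 623 ± 206 in contralateral samples (SD, n = 6 each, log2 change 1.00 ± 0.25, limma adjusted p = 0.102). PPP1CC, a protein phosphatase subunit, had -0.60 (0.108). ADCY3, an adenylyl cyclase, had 1414 ± 266 in ipsilateral and 819 ± 179 in contralateral samples (0.80 ± 0.19, limma adjusted p = 0.0945). Median centring lowers each of these differences by 0.32 on the log2 scale, more than the median of the scaffold list, and the GAPDH 3'/5' ratio was also higher ipsilaterally.

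Among marker genes, 4 passed with cell class, where 26 higher and 28 lower of all 7285 genes were called. The myelin genes MAG (-1.26 ± 0.23, limma adjusted p = 0.018) and MBP (-0.64 ± 0.13, 0.0334) fell in magnocellular layers. Their list had 4 positive and 11 negative of 15, where 4197 of all 7285 genes were negative. AGT fell there too (-1.07 ± 0.18, limma adjusted p = 0.00895), in an astrocyte list with 7 positive and 6 negative (median 0.05). The neurofilament gene NEFM rose (0.83 ± 0.12, limma adjusted p = 0.00295), in a relay neuron list with 4 positive and 4 negative.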
